A study of Mus musculus with 6 samples.

Results

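The receptor for M-CSF (*Csf1r*), 6 transcription factors that set up or maintain the macrophage lineage (*Spi1*, *Maf*, *Cebpa*, *Cebpb*, *Zeb2* and *Runx1*) and a pair of factors that act against each other on osteoclast genes (*Bcl6* and *Prdm1*) were followed in wild-type (WT) and *lincRNA-EPS* knockout (KO) osteoclast precursors. The 9 genes were taken by symbol from a table of 57180 genes. All 9 were found, and all 9 were among the 13428 genes with enough counts for a test. The question behind the comparison was how loss of *lincRNA-EPS*, a long intergenic noncoding RNA of macrophages and red cell precursors, alters cells on the way to becoming osteoclasts.

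Bone marrow-derived macrophages (BMDMs) of wild-type C57BL/6 mice and of *lincRNA-EPS* knockout mice were first given M-CSF alone (24 h, 40 ng/ml). RANKL was then present for 48 h at 40 ng/ml, so that both genotypes had received the same factors when RNA was taken. There were 3 libraries per genotype, described in the labels as independent biological replicates. The knockout line was made by a commercial supplier, and the methods give C57BL/6 mice for the animal experiments. The age and sex of the marrow donors and the design of the allele were not given in the sources used here. No culture without RANKL and no culture with LPS was among these libraries.

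M-CSF keeps macrophages and their precursors alive through its receptor Csf1r, a tyrosine kinase. PU.1, encoded by *Spi1*, opens macrophage enhancers together with C/EBP and RUNX factors, and it switches on *Csf1r*. RANKL directs the same cells to the osteoclast fate through NFATc1, and repressors such as Bcl6 and IRF8 hold osteoclast genes down until Blimp1, encoded by *Prdm1*, silences those repressors.

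The libraries held 17757351 to 19998611 counts. The knocked-out gene checked the labels. *Ttc39aos1*, the symbol of *lincRNA-EPS*, had 20, 37 and 41 counts in WT 1, 2 and 3 and no count in any KO library, where 3 counts, the smallest level taken as measured, would be 0.153 to 0.173 CPM (counts scaled to a common library total). A pair of libraries stood apart in how gene levels followed GC content. Across genes, the deviation of a library from the WT mean correlated with GC content at r = 0.44 in WT 2 and at r = -0.61 in KO 3, against -0.32 to -0.26 in the other 4. Mitochondrial genes took 1.00% of counts in WT 2 and 3.32% in KO 3, against 1.50% to 2.12% elsewhere. Because of this, the 9 genes and most other results are given as counted and after a correction of every library for GC content. The correction took each library's deviation from the mean of all libraries and removed its smooth trend with GC content. A GC trend shared by the libraries of a genotype was removed with it. Most results for the 9 genes that rest on KO 3 or WT 2 are also given without that library. Markers of the labelled cell type were present. All 23 macrophage surface and lysosomal genes were tested, and *Lyz2*, encoding a macrophage lysozyme, was at 13303 ± 729 CPM in WT and 12882 ± 1463 CPM in KO (SD, n = 3 each).

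Markers of other cells were mostly scarce, and the summed level of neutrophil markers was higher in every KO library than in any WT library. The summed level of 15 neutrophil genes was 1447 to 1615 CPM in the WT libraries and 1863 to 2214 CPM in the KO libraries, led by *S100a9* at 358 ± 63.6 and 622 ± 66.2 CPM (SD, n = 3). All 15 were detected. Of the 14 tested, 6 were higher at an unadjusted p under 0.05 (13% of all genes) and 2 lower (13.2%), and *Mpo*, at 193 ± 38.6 and 144 ± 21.8 CPM, was lower in every KO library, a gene named after its values were seen. After GC correction 8 were higher (11.9%) and 1 lower (14%), and the sums stayed separate. The sums for 12 monocyte and dendritic markers were 77.4 to 103 and 104 to 107 CPM, separate by about 1 CPM as counted and overlapping after GC correction, and for 7 mast cell and basophil markers 17.9 to 19.6 and 18.4 to 22.1 CPM, where 3 of the 5 tested were higher in KO at an unadjusted p under 0.05 (13% of all genes). Erythroid and megakaryocyte markers (9 genes, 112 to 117 and 85.3 to 119 CPM, *Car1* and *Hbb-bt* at 0), stromal and osteoblast markers (9 genes, 14.4 to 21.1 and 10.3 to 17.2 CPM, *Bglap* at 0), B cell markers (7 genes found, 6.61 to 8.12 and 7.99 to 9.55 CPM) and T and NK cell markers (8 genes, 1.70 to 2.41 and 2.09 to 3.11 CPM) overlapped between genotypes as counted. After GC correction the sums over the tested genes were higher in every KO library for 5 B cell markers (6.48 to 7.49 and 8.0 to 9.29 CPM) and for the 1 T and NK cell marker tested (1.26 to 1.90 and 2.03 to 2.39 CPM). The part of these cells in the values below was not tested, and in bulk RNA fewer cells of a type cannot be told apart from less RNA per cell.

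Of the 9 genes, 8 had a lower mean in KO precursors, without a call by the main test. *Maf*, *Cebpa*, *Cebpb*, *Csf1r*, *Runx1* and *Bcl6* were each lower in all 3 KO libraries than in any WT library, and *Spi1*, *Zeb2* and *Prdm1* overlapped. KO means ran from 36.5% of the WT mean for *Cebpb* to 88.2% for *Spi1*, and *Prdm1*, the gene that works against the osteoclast repressors, was the exception at 116%. Among all tested genes, 18.8% had every KO library under every WT library and 16.9% had every one above. Without KO 3, *Zeb2* joined the 6, making 7 of 9 against 22.0% of genes. Without WT 2, the same 6 were separate, against 20.9% of genes, and *Prdm1* was higher in all KO libraries, against 19.7% of genes. Without both, 7 were lower against 26.7% of genes.

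**Figure D1:**
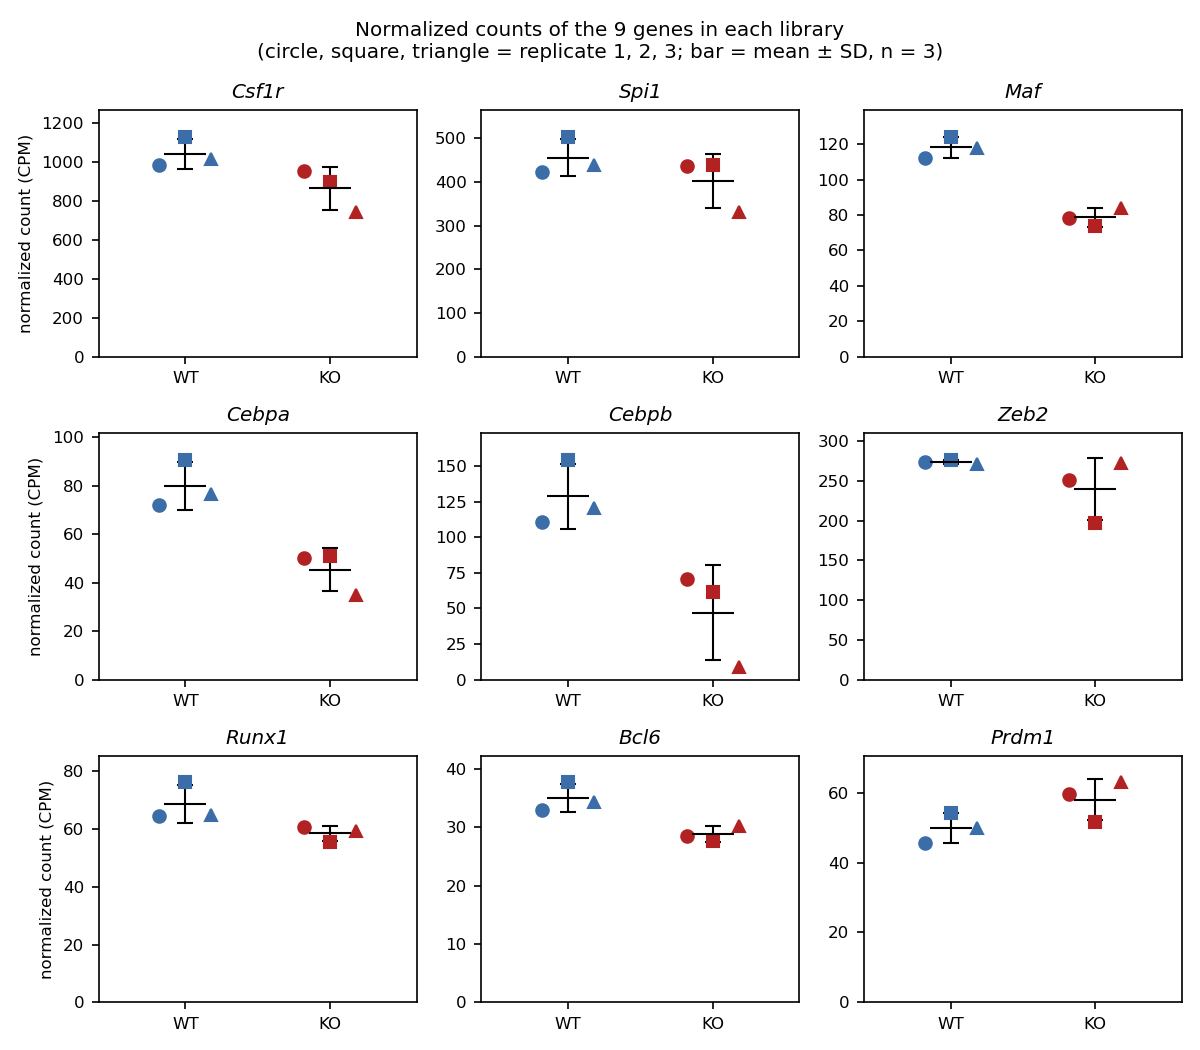
Normalized counts in CPM (vertical axes, each from 0) of the 9 genes in the 3 WT (blue) and 3 KO (red) libraries, with the mean and SD as black bars. The KO points of Maf, Cebpa, Cebpb, Csf1r, Runx1 and Bcl6 lie under all WT points, and KO 3 lies far under KO 1 and KO 2 for Cebpb, at 8.55 CPM.

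None of the 9 passed the limits of edgeR's quasi-likelihood test, an adjusted p under 0.01 with a fold change above 1.3. Only 0.00745% of the tested genes did, which is 1 gene, *Dtx3l* (log2 fold change -2.25 ± 0.14 SE, adjusted p = 0.00102), named here after its value was seen. The deleted gene itself, *Ttc39aos1*, was thus not called by this test. The members' adjusted p-values ran from 0.12 to 0.387. At an unadjusted p under 0.05, 4 members were lower (*Maf*, *Cebpa*, *Bcl6* and *Cebpb*) against 13.2% of all tested genes, and 0 were higher against 13%. With DESeq2, which called 1.22% of the 10357 genes to which it gave an adjusted p, *Maf* and *Cebpa* fell. After GC correction, edgeR again called 0 of 9 against 0.0223% of genes, with 6 lower at an unadjusted p under 0.05 against 14% of genes. DESeq2 then called *Maf* and *Zeb2*, against 3.03% of the 10821 genes with an adjusted p. The median log2 fold change of the 9 was -0.27 where that of all tested genes was 0.01, and it was -0.33 and -0.01 after GC correction. Without WT 2, the members with an unadjusted p under 0.05 were 2 (*Maf* and *Cebpa*), against 5.6% of genes, and without KO 3 they were 6, against 10.3%. With GC correction they were 4 without WT 2, against 8.23%, and 6 without KO 3, against 11.1%.

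**Figure D2:**
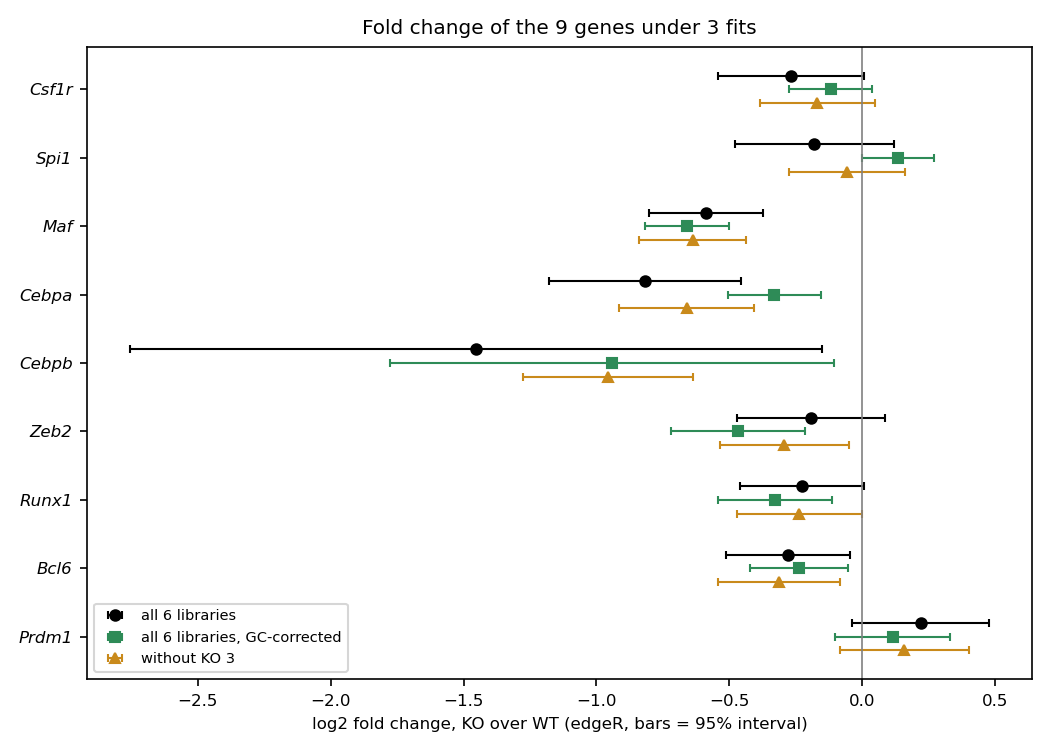
Log2 fold change of KO over WT (horizontal axis) for each of the 9 genes, with 95% intervals, from edgeR on all 6 libraries, on all 6 after GC correction, and without KO 3. The intervals of Maf, Cebpa, Cebpb and Bcl6 lie under 0 in all 3 fits, the interval of Cebpb is widest with all libraries, and the point for Spi1 moves from -0.18 to 0.13 with GC correction.

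*Csf1r* was the most abundant of the 9 in counts. It stood at 981, 1127 and 1011 CPM in WT 1, 2 and 3 and at 953, 896 and 739 CPM in KO 1, 2 and 3. The KO libraries were all below the WT libraries, but KO 1 lay only just under WT 1. The difference was -0.27 ± 0.12 on the log2 scale (SE, 95% interval -0.54 to 0.00, edgeR adjusted p = 0.196). It was -0.12 ± 0.07 after GC correction (adjusted p = 0.301) and -0.17 without KO 3, so that the size of the difference moved by more than 1.5 times with either change. Exons of *Csf1r* share 873 bases with *Hmgxb3* on the other strand (GENCODE annotation of GRCm38), and whether the counting used strand was not stated. *Hmgxb3* was at 28.2 to 52.2 CPM, well under *Csf1r* in every library.

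The genes that act with Csf1r leaned the same way without a call. Of 22 genes for its ligands, adaptors, kinases, phosphatases and targets, 7 were lower in KO at an unadjusted p under 0.05 (13.2% of all genes) and 0 were higher (13%). None was called by edgeR or DESeq2, and the list's median log2 fold change was -0.18, or -0.11 after GC correction. Corrected, 9 were lower (14%) and 1 was higher (11.9%). The higher one was *Src*, the kinase, at 0.31 ± 0.07 (edgeR adjusted p = 0.0635), named after its value was seen, which overlapped between genotypes as counted (-0.03). As counted, the 4 with the smallest p were *Ubash3b*, a phosphatase that dampens tyrosine kinase signals (-0.33 ± 0.09), *Pik3cd*, a catalytic subunit of PI3-kinase (-0.52 ± 0.15), *Inpp5d*, the lipid phosphatase SHIP1 (-0.36 ± 0.12), and *Akt1*, the kinase downstream of PI3-kinase (-0.36 ± 0.13), all log2 fold changes with SE. Their edgeR adjusted p-values were 0.147 to 0.153. With GC correction *Akt1* stood at 0.01, and the other 3 stayed negative at -0.34 to -0.24.

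*Spi1*, which encodes PU.1, had 424, 504 and 439.6 CPM in the WT libraries and 436, 439.5 and 331 CPM in the KO libraries. The genotypes overlapped, since KO 1 and KO 2 lay within the WT range and only KO 3 was under it. The log2 fold change was -0.18 ± 0.13 (95% interval -0.48 to 0.12, edgeR adjusted p = 0.387), and -0.06 without KO 3. GC correction turned its sign. The corrected levels were 403 to 413 CPM in WT and 430 to 457 CPM in KO, a difference of 0.13 ± 0.06 (95% interval 0.00 to 0.27, adjusted p = 0.201), so that no direction can be given for *Spi1*. Its longest transcript is 58.9% GC.

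*Maf* gave the steadiest difference of the 9. Its product c-Maf is a basic leucine zipper factor of mature macrophages. The WT libraries had 112, 124 and 118 CPM and the KO libraries 78.3, 73.6 and 84.1 CPM. Every KO library was well under every WT library, with a gap wider than either group's range. The log2 fold change was -0.59 ± 0.09 (95% interval -0.80 to -0.38), the 18th smallest p of all tested genes, at an edgeR adjusted p of 0.12. With GC correction it was -0.66 ± 0.07 (adjusted p = 0.0103), and DESeq2 called it with and without the correction (adjusted p = 4.7e-10 and 2.25e-05). The transcript is 47.4% GC, close to the median of 49.2% over tested genes. Exons of *Maf* share 440 bases with *Gm15655*, an antisense gene. Leaving out each library in turn kept the log2 fold change between -0.64 and -0.54. DESeq2 then called it in 4 of 6 fits. It lost the call without WT 3 and without KO 2, in fits that called 24 and 31 genes in all.

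*Cebpa*, encoding the factor that commits progenitors to the myeloid lineage, had 72.0, 90.8 and 76.8 CPM in WT and 50.0, 50.9 and 35.0 CPM in KO. Again no KO library reached the WT range. The log2 fold change was -0.82 ± 0.16 (95% interval -1.18 to -0.46, edgeR adjusted p = 0.136, DESeq2 adjusted p = 0.000674). It shrank to -0.33 ± 0.08 after GC correction (95% interval -0.51 to -0.16, edgeR adjusted p = 0.0672), where DESeq2 no longer called it (adjusted p = 0.0225). Its transcript is 62.6% GC. Corrected levels were 65.5 to 68.7 CPM in WT and 48.5 to 57.7 CPM in KO, still without overlap. DESeq2's call was lost without WT 2 and without WT 3, at log2 fold changes of -0.72 and -0.85, in fits that called 21 and 24 genes in all.

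*Cebpb*, encoding a C/EBP factor induced by inflammatory signals, showed the lowest KO mean relative to WT and the widest spread. The WT libraries had 111, 155 and 121 CPM. KO 1 and KO 2 had 70.9 and 61.8 CPM, and KO 3 had 8.55 CPM, from 168 counts. All KO libraries were under all WT libraries, but KO 3 set much of the mean and the error. With all libraries the log2 fold change was -1.45 ± 0.57 (95% interval -2.75 to -0.15, edgeR adjusted p = 0.165). Without KO 3 it was -0.96 ± 0.14 (edgeR adjusted p = 0.0672), and DESeq2 called it (adjusted p = 5.78e-08), where with all libraries it did not (adjusted p = 0.204). GC correction gave -0.94 ± 0.37 (edgeR adjusted p = 0.153), and -0.56 without KO 3 (edgeR adjusted p = 0.0163). The transcript is 67.2% GC, the highest of the 9. It lies above the last bin of GC content with at least 20 genes, centred at 65%, so that few genes set the correction there.

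*Cebpa* and *Cebpb* are relatives, and reads from a stretch they share could be divided between them. The longest exact run shared by their coding sequences is 29 bases, in the part that encodes the DNA-binding basic region. It is shown in capitals inside 60 coding bases of each gene, both from exon 1 and on the plus strand of GRCm38, at chr7:35120277-35120336 for *Cebpa* and chr2:167689697-167689756 for *Cebpb*. The windows match at 47 of 60 positions.
Cebpa: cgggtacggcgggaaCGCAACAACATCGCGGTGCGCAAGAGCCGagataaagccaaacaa
Cebpb: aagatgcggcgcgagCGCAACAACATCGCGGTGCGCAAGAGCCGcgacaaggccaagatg
The coding sequences, of 1077 and 888 bases, share no longer exact run. Exons of *Cebpb* also share 312 bases with *Tmem189* on the other strand, and those of *Cebpa* share 51 bases with an antisense gene.

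The ratio of *Cebpb* to *Cebpa* within a library does not depend on how libraries are scaled. It was 1.54, 1.70 and 1.58 in the WT libraries and 1.42, 1.21 and 0.245 in the KO libraries. All KO ratios were below all WT ratios, and KO 3 was far below the other two. The mean log2 ratio was 0.68 ± 0.08 in WT and -0.42 ± 1.40 in KO (SD, n = 3), a difference of -1.10 with p = 0.1 in a two-sided exact permutation test, the smallest p that 3 against 3 allows. Without KO 3 the difference was -0.29, so its size rests on that library.

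**Figure D3:**
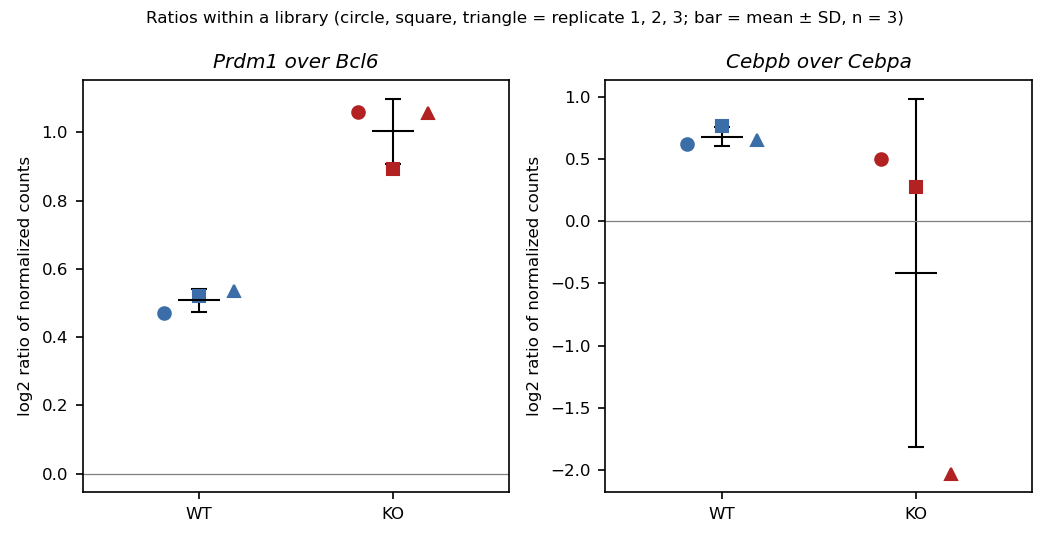
Log2 ratio of normalized counts within each library (vertical axes) for Prdm1 over Bcl6 and Cebpb over Cebpa in WT (blue) and KO (red), with mean and SD as bars. Prdm1 over Bcl6 is between 0.47 and 0.53 in WT and between 0.89 and 1.06 in KO, and the spread of Cebpb over Cebpa in KO comes from KO 3 at -2.03.

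*Zeb2*, encoding a zinc finger repressor that keeps tissue macrophages in their identity, had 274, 277 and 271 CPM in WT and 251, 197 and 272 CPM in KO. KO 1 and KO 2 were below the WT libraries, and KO 3 was level with them. As counted, the log2 fold change was -0.19 ± 0.12 (95% interval -0.47 to 0.09, edgeR adjusted p = 0.329). With 40.6% its transcript has the lowest GC content of the 9, and GC correction moved it the other way from *Cebpa*, to -0.47 ± 0.11 (95% interval -0.72 to -0.21, edgeR adjusted p = 0.0691). As counted it was -0.07 without KO 2 and -0.29 without KO 3, so that single libraries set its size. Corrected levels were 283 to 339 CPM in WT and 192 to 253 CPM in KO, without overlap, and DESeq2 called *Zeb2* after the correction (adjusted p = 0.0032). Exons of *Zeb2* share 653 bases with the antisense *Zeb2os*, which was at 9.32 to 12.9 CPM.

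*Runx1*, encoding a factor needed for blood formation, had 64.6, 76.2 and 65.1 CPM in WT and 60.7, 55.7 and 59.5 CPM in KO. The groups were separate by a narrow margin. KO against WT gave a log2 fold change of -0.23 ± 0.10 (95% interval -0.46 to 0.00, edgeR adjusted p = 0.196), and -0.33 ± 0.09 after GC correction (edgeR adjusted p = 0.0922). Without WT 2 it was -0.15 as counted and -0.23 after GC correction. The longest run it shares with *Runx3* is 38 bases, and its exons share 106 bases with an antisense gene.

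The other factors of the lineage gave a mixed picture. Of 37 such genes 36 were tested. At an unadjusted p under 0.05, 10 were lower (13.2% of all genes) and 2 higher (13%), and after GC correction again 10 lower (14%) and 2 higher (11.9%). The median log2 fold change was -0.19, or -0.11 with GC correction. *Atf3*, which encodes a stress-induced repressor, was called lower by DESeq2 (-0.49 ± 0.09, edgeR adjusted p = 0.136, and -0.40 ± 0.07 after GC correction). Others with a small p were *Klf2*, encoding a factor of quiescent monocytes (-0.89 ± 0.22, and -0.46 ± 0.11 after GC correction), and *Cebpd*, another C/EBP gene of these cells (-0.86 ± 0.23, and -0.80 ± 0.20), both at an edgeR adjusted p of 0.147. *Cebpd* had 26.0, 32.2 and 26.0 CPM in WT and 19.0, 17.7 and 9.73 CPM in KO. *Cebpa*, *Cebpb* and *Cebpd* were thus each lower in every KO library than in any WT library (18.8% of all tested genes). KO 3 was the lowest for all of them as counted, but after GC correction it was the highest KO library for *Cebpa*. *Cebpe* (-0.15 ± 0.17, and 0.28 after GC correction) and *Cebpg* (0.15 ± 0.14, and -0.04) overlapped between genotypes, and GC correction turned the sign of both. They are named here after their values were seen.

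*Bcl6*, encoding a zinc finger repressor that occupies osteoclast genes in precursors, had 32.9, 37.7 and 34.4 CPM in WT and 28.5, 27.7 and 30.2 CPM in KO. All KO libraries were under all WT libraries, and here KO 3 was the highest of the KO libraries. This was a log2 fold change of -0.28 ± 0.10 (95% interval -0.51 to -0.04, edgeR adjusted p = 0.159). GC correction left it at -0.24 ± 0.08 (adjusted p = 0.119).

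*Prdm1*, encoding Blimp1, had 45.6, 54.0 and 49.8 CPM in WT and 59.5, 51.5 and 62.9 CPM in KO. KO 1 and KO 3 were above the WT libraries, and KO 2 lay within their range. The KO mean was above the WT mean by 0.22 ± 0.11 on the log2 scale (95% interval -0.04 to 0.48, edgeR adjusted p = 0.24), and 0.11 ± 0.10 after GC correction (adjusted p = 0.469), where leaving out 1 library gave 0.04 (without WT 1) to 0.19 (without WT 2).

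Set against each other, *Prdm1* and *Bcl6* separated the genotypes more cleanly than either gene alone. The ratio of *Prdm1* to *Bcl6* counts was 1.39, 1.43 and 1.45 in the WT libraries and 2.09, 1.86 and 2.08 in the KO libraries. The genotypes did not overlap, and as counted the gap was several times the range within WT and wider than that within KO. After GC correction the ratios still did not overlap, but the gap was narrower and closer to the ranges within the genotypes. How often other pairs of genes separate in this way was not tested. On the log2 scale the mean was 0.51 ± 0.03 in WT and 1.00 ± 0.10 in KO (SD, n = 3), a difference of 0.49 with p = 0.1 by the exact permutation test, again the smallest it can give. The difference was 0.36 after GC correction and between 0.47 and 0.55 with any library left out.

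The start regions of both genes are shown because Blimp1 is known to repress *Bcl6* in osteoclast precursors and Bcl6 to repress its own gene. RefSeq windows were matched for 6 of the 9 genes (*Bcl6*, *Prdm1*, *Zeb2*, *Runx1*, *Cebpa* and *Cebpb*, with 11 starts), and not for *Csf1r*, *Spi1* and *Maf*. The 250 bases before a start were searched on both strands, on GRCm38.p6. The window of the second *Bcl6* start lies on the minus strand at chr16:23981284-23981533 and that of *Prdm1* on the minus strand at chr10:44458749-44458998. Capitals mark every motif found.
Bcl6: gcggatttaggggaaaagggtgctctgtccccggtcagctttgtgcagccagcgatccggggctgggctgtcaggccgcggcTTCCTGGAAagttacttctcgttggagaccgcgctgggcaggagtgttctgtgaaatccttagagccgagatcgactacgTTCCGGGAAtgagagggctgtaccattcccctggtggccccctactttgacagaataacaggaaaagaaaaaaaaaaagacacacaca
Prdm1: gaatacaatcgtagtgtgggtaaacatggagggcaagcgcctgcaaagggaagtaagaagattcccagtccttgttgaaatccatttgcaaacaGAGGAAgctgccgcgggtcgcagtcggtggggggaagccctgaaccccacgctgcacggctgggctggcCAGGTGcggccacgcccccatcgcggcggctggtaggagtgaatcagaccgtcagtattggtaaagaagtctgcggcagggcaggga
The *Bcl6* window holds the Bcl6 motif TTCCNNGAA at positions -168 and -88 from the start, and 4.06% of 32851 promoter windows hold it at least once. Both positions match on either strand and each is counted as 1 match. The *Prdm1* window holds GAGGAA, a PU.1 core motif found in 23.25% of windows, and CACCTG on the other strand, an E-box that ZEB factors bind, found in 17.22%. GAGGAA was in 7 of the 11 windows, which belong to 4 of the 6 genes (*Bcl6*, *Prdm1*, *Runx1* and *Zeb2*). Some genes have several windows, and those of *Zeb2* partly overlap. TTGCNNAA, a C/EBP motif found in 9.56% of windows, and AGNGAAAG, a Blimp1 motif found in 7.3%, were each in *Zeb2* alone. TGTGGT, a RUNX motif (14.05%), and TGCTGAC, a MAF motif (3.81%), were in no member's window. These matches describe letters, not binding.

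Other genes that restrain osteoclast formation were tested in 25 of 26 cases. In KO 7 were lower at an unadjusted p under 0.05 (13.2% of all genes) and 1 was higher (13%), with a median log2 fold change of -0.22. After GC correction 6 were lower (14%), 0 were higher (11.9%), and the median was -0.10. Among those with a small p were *Zbtb7a*, encoding the repressor LRF (-0.58 ± 0.15), and *Irf8*, encoding a repressor of *Nfatc1* (-0.44 ± 0.13), each at an edgeR adjusted p of 0.147. *Irf8* had 80.6, 92.4 and 78.6 CPM in WT and 65.7, 68.2 and 51.1 CPM in KO, separate in all libraries. With GC correction *Zbtb7a* and *Irf8* stood at -0.32 and -0.37.

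Genes of the osteoclast program pointed the opposite way. Of 20 tested, 8 were higher in KO at an unadjusted p under 0.05 (13% of all genes) and 0 were lower (13.2%), with a median log2 fold change of 0.22, and 9 and 0 with a median of 0.24 after GC correction. DESeq2 called 5, all higher, where it called 1.22% of the genes with an adjusted p, and 7, all higher, after the correction, where it called 3.03%. *Dcstamp*, needed for cell fusion, was at 118, 109 and 119 CPM in WT and 193, 199 and 228 CPM in KO (log2 fold change 0.84 ± 0.10, edgeR adjusted p = 0.0635, and 0.77 with adjusted p = 0.00559 after GC correction, where it was called). *Ctsk*, the collagen-degrading protease (0.77 ± 0.11), *Atp6v0d2*, a proton pump subunit (0.88 ± 0.15), and *Car2*, which supplies the protons (0.51 ± 0.09), had edgeR adjusted p-values of 0.102 to 0.136. After GC correction they stood at 0.75, 0.64 and 0.49. *Nfatc1*, encoding the master factor, was at 267, 324 and 269 CPM in WT and 332, 282 and 266 CPM in KO, with overlap (0.03 ± 0.12, adjusted p = 0.872). *Ctsk* and *Dcstamp* were named by the study for these samples, so their direction is not independent evidence.

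Macrophage surface and lysosomal genes leaned down. Of 23, 10 were lower at an unadjusted p under 0.05 (13.2% of all genes) and 2 higher (13%), with a median of -0.18, or -0.20 after GC correction with 11 lower (14%) and 1 higher (11.9%). *Siglec1*, the sialic acid receptor of tissue macrophages (-1.28 ± 0.20, edgeR adjusted p = 0.12), *Mertk*, a receptor for dying cells (-0.57 ± 0.10, 0.136), and *Fcgr1*, the high-affinity IgG receptor (-0.64 ± 0.13, 0.141), were called by DESeq2. *Cx3cr1*, the fractalkine receptor (-0.45 ± 0.10, edgeR adjusted p = 0.147), was called by DESeq2 only after GC correction. After GC correction *Siglec1*, *Mertk*, *Fcgr1* and *Cx3cr1* stood at -1.06, -0.62, -0.57 and -0.42. *Siglec1* had 40.8, 52.5 and 42.5 CPM in WT and 24.7, 16.9 and 14.2 CPM in KO. Set beside these, the summed level of the whole list overlapped between genotypes, at 18043 to 19255 and 16144 to 19480.1 CPM, most of it *Lyz2*.

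**Figure D4:**
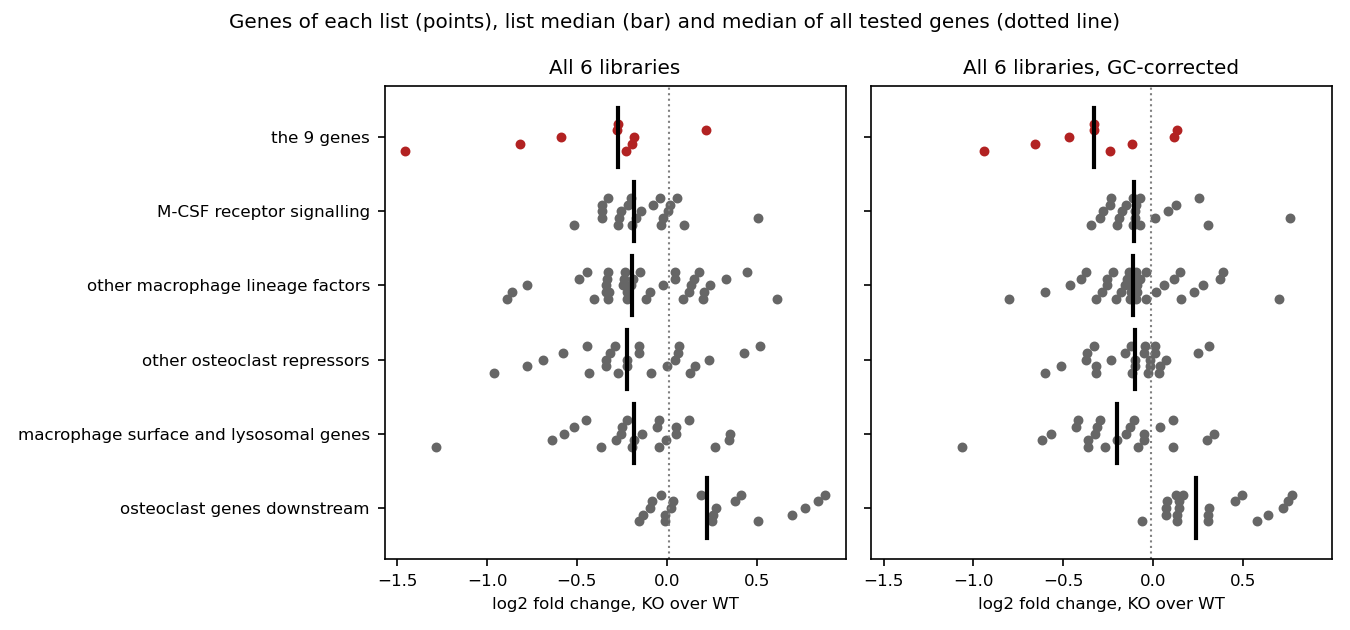
Log2 fold change of KO over WT (horizontal axes) for the 9 genes and the genes of 5 lists of macrophage and osteoclast genes (points), with the list median (bar) and the median of all tested genes (dotted line), as counted and after GC correction. The median of the 9 genes is -0.27 as counted and -0.33 corrected, and of the 6 sets drawn the osteoclast genes alone have a median above 0, at 0.22 and 0.24.

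The 9 genes differed in GC content, and the correction moved them unequally. Over all tested genes the log2 fold change correlated with GC content at r = -0.51 as counted and at -0.01 after correction, a description across genes, which are not independent. *Cebpb*, *Cebpa* and *Spi1*, the members above 58% GC, moved up by 0.51, 0.49 and 0.31 with the correction, and *Zeb2* moved down by 0.27. *Maf*, *Runx1*, *Bcl6* and *Prdm1*, between 46.3% and 50.6% GC, moved by at most 0.11. After correction 7 members had all KO libraries below all WT libraries (17.7% of genes), *Spi1* had all above (14.7% of genes), and *Prdm1* overlapped.

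**Figure D5:**
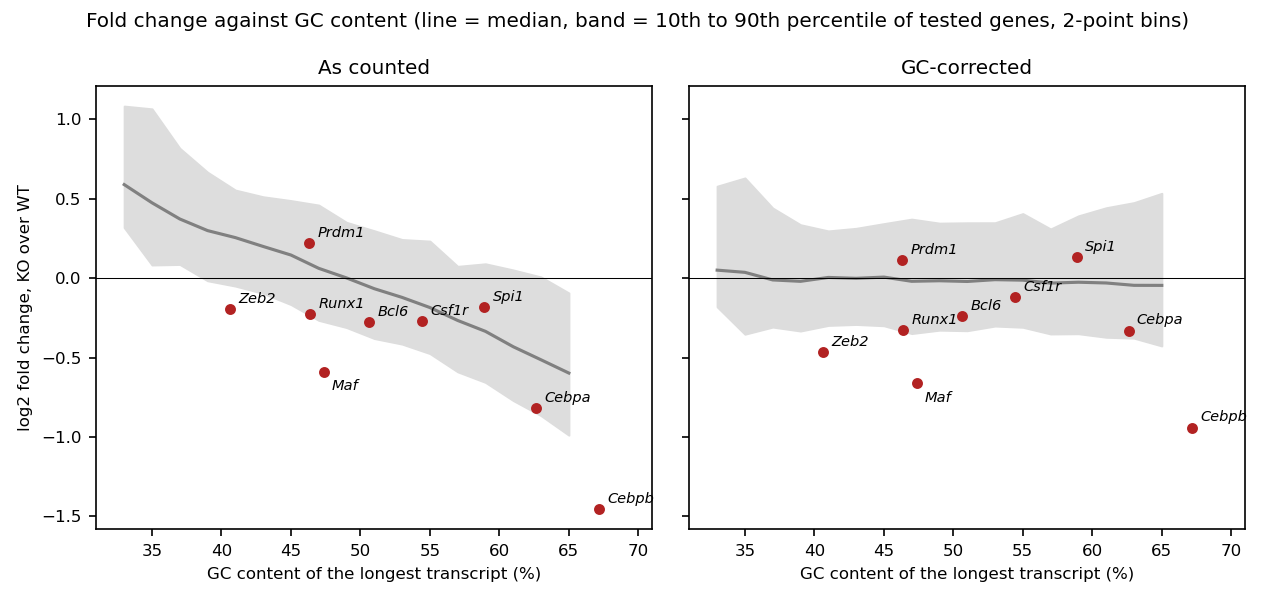
Log2 fold change of KO over WT (vertical axis) against GC content of the longest transcript in percent (horizontal axes), as counted and after GC correction, for the 9 genes (red) over the median (line) and the 10th to 90th percentile (band) of tested genes, drawn where a bin held at least 20 genes. The line falls with GC content as counted and is flat after correction, and Maf and Zeb2 lie under the band in both panels.

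Per kilobase of the longest transcript, *Spi1* and *Csf1r* led in WT with 224 and 221 CPM per kb, and their ranges overlapped. They were followed by *Cebpb* at 85.7, *Cebpa* at 30.4 and *Zeb2* at 30.1, and the ranges of *Cebpa* and *Zeb2* overlapped. *Maf* (18.6), *Runx1* (11.7), *Prdm1* (9.43) and *Bcl6* (8.89) came last, and *Prdm1* and *Bcl6* overlapped in WT. In KO the order differed in part. *Cebpb*, at a mean of 31.3, overlapped *Cebpa* only because of KO 3, where it was at 5.69. In KO 1 and KO 2 it lay well above *Cebpa*, as in WT. *Zeb2* at 26.3 lay above *Cebpa* at 17.3 in every KO library, and *Prdm1* and *Runx1* overlapped. The ranges of *Prdm1* at 11.0 and *Bcl6* at 7.33 were separate in KO. Within each library of either genotype, *Prdm1* lay above *Bcl6*.

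Genes most like 3 of the members over the 6 libraries, by Pearson's r of log2 CPM, were *Adprh*, *Arhgef7* and *Tcf3* for *Csf1r* (each r = 0.999, among 1328 of 13428 genes over 0.95), *Bhlhe41*, *Ubash3b* and *Dhx33* for *Bcl6* (0.992 to 0.995, among 85 over 0.95), and *Gm37788*, *Klhl15* and *Ablim1* for *Prdm1* (0.970 to 0.995, among 11). Among the members, *Csf1r* followed *Cebpb* (r = 0.96), *Cebpa* (0.95) and *Spi1* (0.95), and *Maf* followed *Bcl6* (0.97) and *Runx1* (0.87). *Prdm1* had a negative r with all others except *Zeb2* (0.04), from -0.70 with *Cebpb* to -0.21 with *Runx1*. These are descriptions over 6 libraries that share the genotype difference and the GC trend, with no test.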

How the data were processed

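RNA was sequenced from 3 WT and 3 KO cultures, grouped by the genotype in their labels. The authors deposited estimated counts per gene, not normalized, from stranded mRNA libraries sequenced and analysed at their provider. The submitters' processing notes name fastp, HISAT2, StringTie and RSEM and the build GRCm39. Settings, versions and the use of strand were not given in the sources used here. The authors' genotype means were not used.

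The estimated counts were rounded and analysed in R 4.3.3 with edgeR 4.0.16 (filterByExpr by genotype, TMM, glmQLFit with legacy = FALSE, glmQLFTest, two-sided, Benjamini-Hochberg adjustment over 13428 genes). Calls needed an adjusted p under 0.01 and a fold change above 1.3. CPM are counts relative to the TMM-scaled library total, and 525 rows with a gene identifier but no symbol were kept. Levels under 3 counts were treated as not measured, a floor for counting error only. DESeq2 1.42.0, limma 3.58.1, other scalings and filters, a replicate block, a GC correction (natural spline with 5 degrees of freedom per library, entered as offsets, for the 13176 tested genes with a GC value) and each library left out were alternatives. The fits were tested on simulated data. The batch label is each library's own name, so a batch cannot be told apart from a library. GC content, length and overlaps come from GENCODE M21 and promoter windows from RefSeq, both on GRCm38, joined by identifier or symbol.

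Ratios used a two-sided exact permutation test over libraries. Named genes were the members, *lincRNA-EPS*, *Irf8* and *Nfatc1*, up to 4 genes per list with the smallest p under 0.05, and the 3 genes most like *Csf1r*, *Bcl6* and *Prdm1*. Some genes that this rule names are not reported here. The members and lists were chosen with earlier results of these data known.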

Additional observations from a re-analysis of the deposited data

How the results depend on the processing

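No member was called under any edgeR setting with all libraries or in limma-voom. DESeq2 called 2 of the 9 and 126 genes in all where edgeR called 0 and 1, and with GC correction it called 2 and 328. GC correction alone gave 3 genes. In edgeR without the correction, 4 members and 3515 genes had an unadjusted p under 0.05, and with it 6 members and 3488 genes. With 1 library left out, edgeR called 0 to 2 genes and 0 members without GC correction, and with it *Maf* was called without KO 1 (adjusted p = 0.00859), in a fit that called 80 genes where the other such fits called 1 to 3. The sign of *Spi1* turned in every GC-corrected fit, to 0.13 in edgeR, 0.13 with the replicate block added, 0.15 in DESeq2 and 0.12 to 0.16 with 1 library left out. The other 8 members kept their sign in all fits. The log2 ratio of *Cebpb* to *Cebpa* ran from -1.56 to -0.29 with 1 library left out and was -0.85 with GC correction, and that of *Prdm1* to *Bcl6* stayed between 0.36 and 0.55. The cause of these differences was not tested, except that leaving out a library leaves fewer samples. The GC-corrected and DESeq2 fits with a library left out, and the counts of separate genes without KO 3 or WT 2, were chosen after seeing the data.

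Same-numbered WT and KO libraries did not deviate together (r = -0.22, 0.08 and 0.17 for numbers 1, 2 and 3), so the numbers were not taken as pairs. With the replicate number as a block edgeR called 1 gene and 0 members, also with GC correction, and the paired ratio tests gave 0.49 and -1.10 with p = 0.25 by exact sign flips, the smallest p possible. The lowest count of a member in a library was 168, and the part of depth in the calls was not tested.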

Other observations

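*Cebpb* in KO 3 was looked at after its value was seen. Among 6773 genes with more than 20 CPM in each of the other 5 libraries, its level in KO 3 relative to the mean of KO 1 and KO 2 was the 3rd lowest, at 12.9% (-2.96 on the log2 scale, where the median gene was at 0.00). After GC correction it was the 7th lowest, at 27.0% (-1.89). *Cebpa*, at -0.53, ranked 474th from the bottom as counted and stood at 0.18 after GC correction.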
